A study of Mus musculus with 2 samples.

Results

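The 10 genes described here make the MHC class II molecules of the mouse, load them with peptide and switch them on. They were taken by symbol, as H2-Aa, H2-Ab1, H2-Eb1, Cd74, Ciita, H2-DMa, H2-DMb1, H2-DMb2, H2-Oa and H2-Ob, out of 31053 genes measured by single-cell RNA sequencing of kidney. They were chosen because tubule cells and group 2 innate lymphoid cells (ILC2) of the old library held more of them, so their differences between the ages in these cells are a description and not a finding of a test.

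The data are 2 libraries, 1 of pooled kidneys of young MRL-lpr mice and 1 of pooled kidneys of old MRL-lpr mice. MRL-lpr is a lupus-prone strain with a defect in the Fas death receptor, and every mouse of both groups carried it, so no library of another strain stands beside them. Cells were spun on a density gradient, enriched for ILCs with a magnetic kit and sorted alive, so a share of a library is not a frequency in the kidney. With 1 library per age, pooled from an unstated number of mice, age cannot be told apart from library, mouse or preparation, and no p-value was computed.

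MHC class II molecules are pairs of an alpha and a beta chain that show peptides from endosomes to CD4+ T cells. The chains are built around the invariant chain Cd74, which blocks the groove until proteases cut it away, and H2-DM then exchanges the remaining fragment for a peptide, while H2-O restrains H2-DM, above all in B cells. Ciita, the master coactivator of the genes, is on in dendritic cells, B cells and macrophages and can be switched on by interferon-gamma in other cells. Kidney tubule cells are known to be able to show class II molecules in inflamed kidneys, and ILC2 cells can carry them too.

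All 10 genes were matched by their Ensembl identifiers to GENCODE M21 on GRCm38, the mm10 build. H2-Oa, H2-DMa, H2-DMb2, H2-DMb1, H2-Ob, H2-Ab1, H2-Aa and H2-Eb1 lie in this order on chromosome 17, from base 34092340 at the start of H2-Oa to base 34316674 at the end of H2-Eb1, all on the plus strand except H2-Aa. Ciita lies at 10480059 to 10528418 of chromosome 16 and Cd74 on another chromosome. MRL mice have the H2k haplotype and the mm10 reference the H2b haplotype, and the effect of the mismatches on the counts, which both libraries share, was not tested.

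Class II genes share a promoter module in which the X box binds RFX and the Y box binds NF-Y, and Ciita docks on both. The promoter windows of 5 members are shown because the module is what these genes share. A further reason is that 1 of them, H2-Oa, had nearly the same level at both ages in ILC2 cells. RefSeq gave windows on GRCm38.p6 of 250 bases before and 50 bases after the start for 7 of the 10 genes, H2-DMa having 2. The windows read 5′ to 3′ on the strand of the gene, and capitals mark each match, on either strand, to the Y box core GATTGG or the X box core AGNAAC. H2-Aa is shown from chr17:34287774-34288073 on the minus strand, H2-Eb1 from chr17:34305617-34305916, H2-DMb1 from chr17:34152941-34153240, H2-DMb2 from chr17:34144999-34145298 and H2-Oa from chr17:34092129-34092428, these last on the plus strand.
H2-Aa: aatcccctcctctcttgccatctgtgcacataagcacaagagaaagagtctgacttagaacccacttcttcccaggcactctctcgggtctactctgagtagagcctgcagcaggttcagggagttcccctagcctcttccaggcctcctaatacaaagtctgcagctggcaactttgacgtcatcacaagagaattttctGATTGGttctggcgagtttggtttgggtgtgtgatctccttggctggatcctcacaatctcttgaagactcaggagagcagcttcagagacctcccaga
H2-Eb1: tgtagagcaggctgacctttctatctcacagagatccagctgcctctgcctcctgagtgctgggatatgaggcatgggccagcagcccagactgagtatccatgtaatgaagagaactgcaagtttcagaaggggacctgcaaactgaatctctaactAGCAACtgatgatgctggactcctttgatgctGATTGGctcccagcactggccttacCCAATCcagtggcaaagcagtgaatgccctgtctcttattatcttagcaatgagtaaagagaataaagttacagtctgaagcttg
H2-DMb1: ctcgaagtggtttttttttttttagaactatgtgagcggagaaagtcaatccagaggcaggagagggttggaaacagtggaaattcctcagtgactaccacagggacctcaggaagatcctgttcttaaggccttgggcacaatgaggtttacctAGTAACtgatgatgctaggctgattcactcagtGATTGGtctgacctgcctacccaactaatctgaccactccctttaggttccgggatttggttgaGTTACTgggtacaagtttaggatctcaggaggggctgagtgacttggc
H2-DMb2: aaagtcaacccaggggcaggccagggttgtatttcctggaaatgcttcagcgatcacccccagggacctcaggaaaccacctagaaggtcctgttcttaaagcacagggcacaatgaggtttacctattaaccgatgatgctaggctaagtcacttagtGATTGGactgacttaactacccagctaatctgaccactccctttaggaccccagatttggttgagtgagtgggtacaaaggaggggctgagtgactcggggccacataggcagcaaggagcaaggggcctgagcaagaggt
H2-Oa: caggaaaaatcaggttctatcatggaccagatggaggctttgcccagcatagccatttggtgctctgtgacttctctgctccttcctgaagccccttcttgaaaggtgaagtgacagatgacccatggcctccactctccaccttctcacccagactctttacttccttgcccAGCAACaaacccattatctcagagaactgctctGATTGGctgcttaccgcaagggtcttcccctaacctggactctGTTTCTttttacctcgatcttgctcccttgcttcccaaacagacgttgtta

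GATTGG was found in at least 1 window of all 7 genes, and in 16.1% of all 32851 promoter windows of this length. AGNAAC followed on the same strand by GATTGG, with 25 to 45 bases from start to start, was found in 4 of the 7 genes, H2-Eb1, H2-DMb1, H2-Ob and H2-Oa, and in 0.402% of all windows. The distance was 32 bases in H2-Eb1, 33 in H2-DMb1, 30 in H2-Ob and 33 in H2-Oa. In H2-Eb1 the Y core began 60 bases before the start, in H2-DMb1 62, in H2-Ob 58 and in H2-Oa 44. The cores were taken from what is known of these very promoters, so the match describes them and is no independent evidence, and the letters absent from a window say nothing of what binds there.

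Cells were kept at 200 or more genes and at most 20% mitochondrial unique molecular identifiers (UMIs), which left 11429 young and 10232 old cells. A cell entered a class with UMIs of at least 3 genes of a marker list, and more than of any other list of its lineage. It could hold at most 1 marker of each list of another lineage. No member served as a marker. The gate placed 68.1% of young and 67.7% of old cells, among them 5778 young and 3171 old proximal tubule (PT) cells and 970 young and 276 old ILC2 cells. The median PT cell held UMIs of 7 of the 8 PT markers in the young library, and Ptprc, the pan-leukocyte gene Cd45, was at 1.20 UMIs per 1000000 (CPM) in young PT cells and 2.94 CPM in old ones. Y-linked UMIs and no Xist UMI were held by 50.8% of the young cells and 40.6% of the old cells, although the study's methods name female mice, and 41 cell barcodes occurred in both libraries.

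Levels are the UMIs of a gene summed over a class and scaled to 1000000 UMIs of that class, with an exact Poisson 95% interval that covers counting error only. The 10 genes together held 168573 UMIs in young and 455440 UMIs in old kept cells, of which 66.0% and 41.3% lay in cells that entered no class. In the young library the class with the highest summed level was the macrophages (53804.5 CPM), followed by dendritic cells (42021 CPM), B cells (21624 CPM), plasmacytoid dendritic cells (10749 CPM), monocytes (5308 CPM) and neutrophils (3593 CPM). The interval of none of these overlapped that of its neighbour in the order. Young ILC2 cells followed at 196 CPM, natural killer (NK) cells or ILC1 at 132 CPM and T cells at 131 CPM, and the last pair could not be told apart by counting error. Endothelial cells came next at 95.3 CPM (76.1–118), with an interval that overlapped that of T cells. Young PT cells stood at 38.7 CPM (37.4–40.0), which did not differ beyond counting error from the other tubule cells at 20.9 CPM (9.54–39.6).

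In the old library PT cells stood at 3745 CPM (3728–3761), between plasma cells (5673 CPM) and neutrophils (3273 CPM). They held 43.7% of all member UMIs of the old library, against 2.11% of those of the young library. Old ILC2 cells stood at 1309.7 CPM (1252–1369), above NK cells or ILC1 (448 CPM) and T cells (142 CPM). Old B cells were at 27949 CPM and macrophages at 16162 CPM. The other tubule cells of the same old library, 93 cells that passed the markers of loop, distal and collecting segments, stood at only 72.8 CPM (60.2–87.3). Endothelial cells of the old library, 16 cells and so too few to be placed in the order, held 4323 CPM, against 95.3 CPM in 170 young ones.

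**Figure D1:**
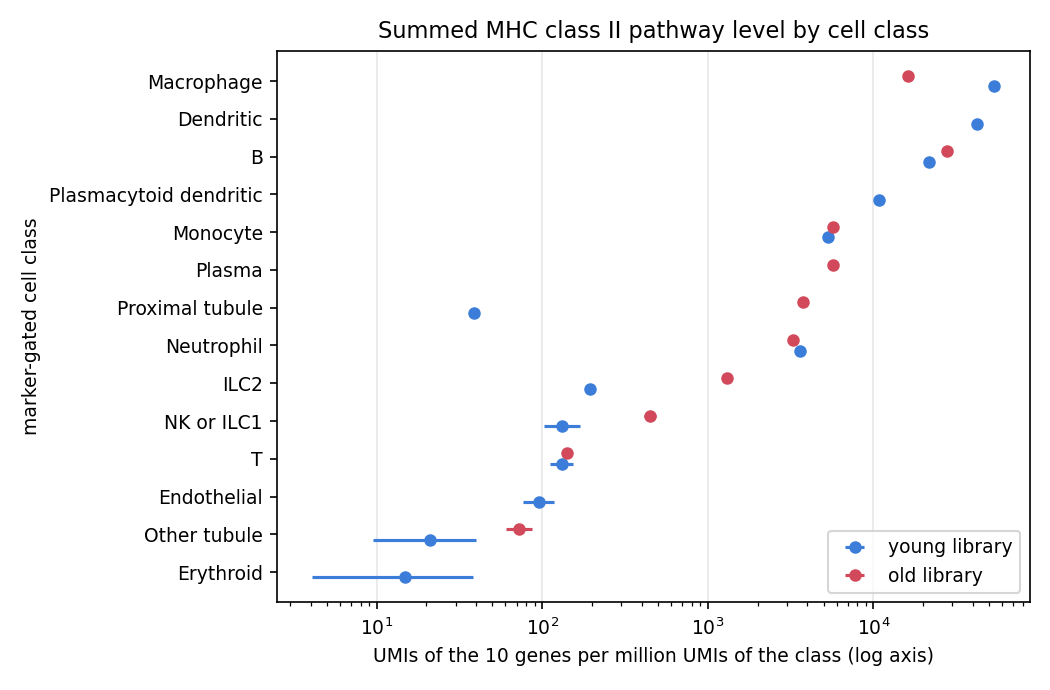
Summed UMIs of the 10 genes per 1000000 UMIs (x axis, log scale) in each marker-gated class of at least 20 cells (y axis), for the young and the old library. Points are the level of 1 library and bars the exact Poisson 95% interval, hidden by the point where narrow. PT cells moved from 38.7 to 3745 CPM and ILC2 cells from 196 to 1309.7 CPM, while T cells were at 131 and 142 CPM.

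Among PT cells the classical chains were all higher in the old library. H2-Ab1, the beta chain of the I-A molecule, was at 6.22 CPM (5.72–6.75) in young PT cells and 581 CPM (574–587) in old ones, a log2 ratio of 6.55 (6.43–6.67). H2-Aa, its alpha chain, was at 3.70 and 443 CPM, a log2 ratio of 6.91 (6.75–7.06). H2-Eb1, the beta chain of the I-E molecule, was at 1.53 and 122 CPM, a log2 ratio of 6.31 (6.07–6.57). The intervals of the young and the old library were apart for each of the 3 genes.

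Cd74, the invariant chain, was at 19.0 CPM (18.1–19.9) in young PT cells and 2356 CPM (2343–2369) in old ones, a log2 ratio of 6.96 (6.89–7.03). Ciita was at 0.739 CPM (0.574–0.937) and 27.1 CPM (25.7–28.5), a log2 ratio of 5.20 (4.84–5.57) that rests on 68 young and 1439 old UMIs. Among the peptide exchange genes, H2-DMa was at 3.81 and 86.6 CPM, H2-DMb1 at 3.14 and 83.6 CPM and H2-DMb2 at 0.446 and 44.7 CPM. Their log2 ratios were 4.51 (4.35–4.67), 4.73 (4.56–4.91) and 6.65 (6.20–7.13). The H2-O genes stayed at the edge of detection. H2-Oa had 7 young and 4 old UMIs, and H2-Ob had 5 young and 12 old UMIs, in all PT cells.

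Of the 10 genes, 8 had the 100 UMIs in the pair of libraries that a ratio was counted from, and all 8 were at least 2-fold higher in old PT cells. Of the 11931 genes counted in PT cells, 3.09% were. Since the members were chosen on this difference, nothing is read from the count. Their ranks by log2 ratio ran from 22 for Cd74 to 61 for H2-DMa, and the median of the 8 log2 ratios was 6.43, against 0.01 over all genes counted.

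**Figure D2:**
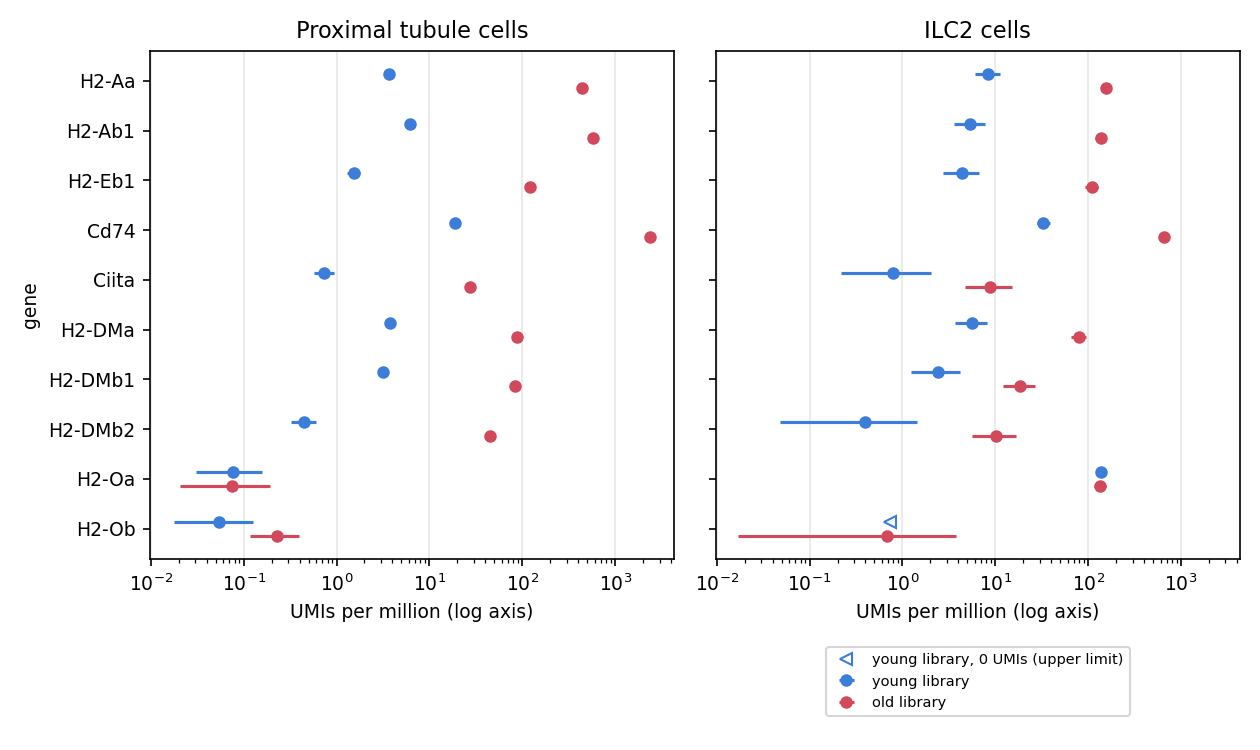
UMIs per 1000000 (x axis, log scale) of each of the 10 genes (y axis) in PT cells and in ILC2 cells of the young and the old library, with exact Poisson 95% intervals as bars. An open triangle marks the upper limit where no UMI was counted. In PT cells all genes but H2-Oa and H2-Ob lie apart, and in ILC2 cells H2-Oa lies at 136 CPM for young and 134 CPM for old.

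The difference was spread over most old PT cells. The median cell had 28.9 member UMIs per 10000 UMIs in the old library, with 9.97 at the 25th and 55.9 at the 75th percentile, and 0 in the young library. UMIs of 4 or more different members were found in 68.1% of old and 0.987% of young PT cells. Any member UMI was found in 95.1% of old and 23.9% of young PT cells, at median depths of 13690 and 13061 UMIs. After thinning to 1000 UMIs per cell, which left out 57 old and 220 young cells, the shares were 77.6% (exact Clopper-Pearson 95% interval 76.1–79.0%) and 3.15% (2.71–3.64%). In the young library the top 5% of PT cells held 65.0% of the UMIs, and the highest cell reached 393 per 10000. In the old library the top 5% held 26.1%, but 22.4% of thinned cells had no member UMI, where 2.36% would if every cell had the same level, so the level varied from cell to cell.

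**Figure D3:**
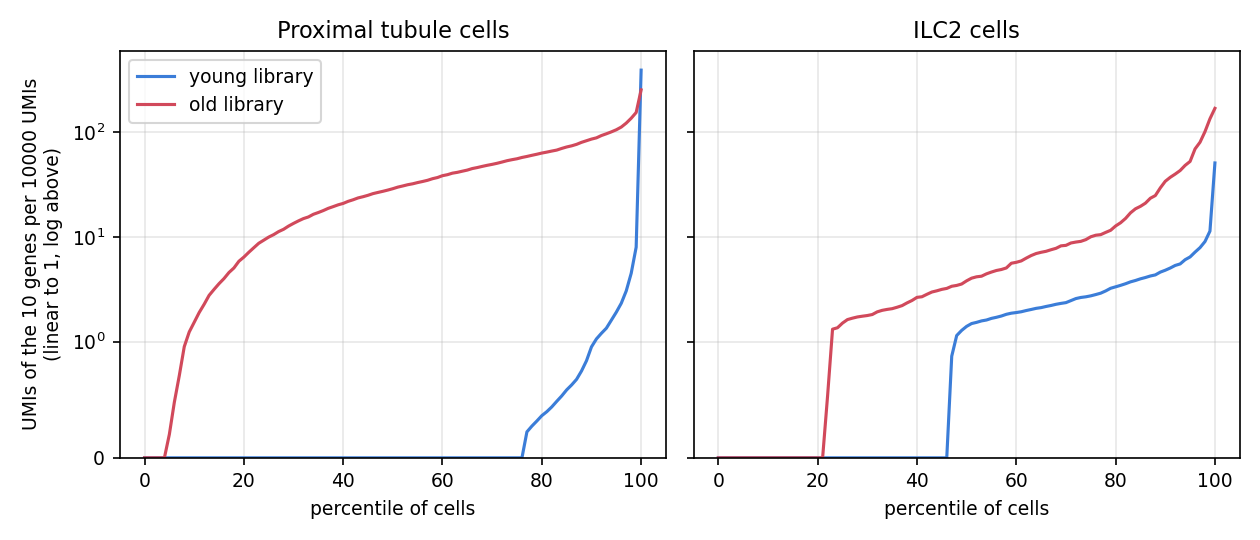
Member UMIs per 10000 UMIs of a cell (y axis, linear to 1 and log above) at each percentile of cells (x axis), for PT and ILC2 cells of the young and the old library. The old PT curve leaves 0 at about its 5th percentile and passes 28.9 at the median, and the old ILC2 curve stays at 3.81 at the median and climbs to 52.7 at the 95th percentile.

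RNA freed from leukocytes reaches all droplets, so each gene's level in PT cells was set against its level over all kept cells of the library, PT cells included. For 16 genes that only leukocytes use, among them Ptprc, Cd52, Lyz2 and Cd79a, the level in old PT cells was 0.656% of the library's in the median and 1.88% at most, for the actin bundler Lcp1. For 8 members it was between 52.8%, for H2-Eb1, and 120%, for H2-DMb2. H2-Oa, at 0.654%, stood among the leukocyte genes, and H2-Ob stood at 4.24%. Cd3e, Cd3g, Cd79a, Cd79b, C1qa, C1qb and C1qc of the 16 were also gate markers, so their low level was partly set by the gate. Ptprc, Cd52 and Lyz2, which the gate did not use, were at 0.768%, 0.566% and 0.584% in old PT cells. In young PT cells the 16 genes had a median of 0.960% and a highest value of 3.59%, for Lcp1, and the next was at 1.24%. Cd74 (2.98%), H2-Aa (1.93%) and H2-Eb1 (1.38%) were below the value of Lcp1 but above the next. H2-Ab1 (4.32%), H2-DMb2 (6.62%), Ciita (12.1%), H2-DMa (14.9%) and H2-DMb1 (16.6%) were above that of Lcp1. Old PT cells without a UMI of any of the 16 genes, 2071 cells, held 3824 CPM of the members, and 4701 such young cells held 35.2 CPM.

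**Figure D4:**
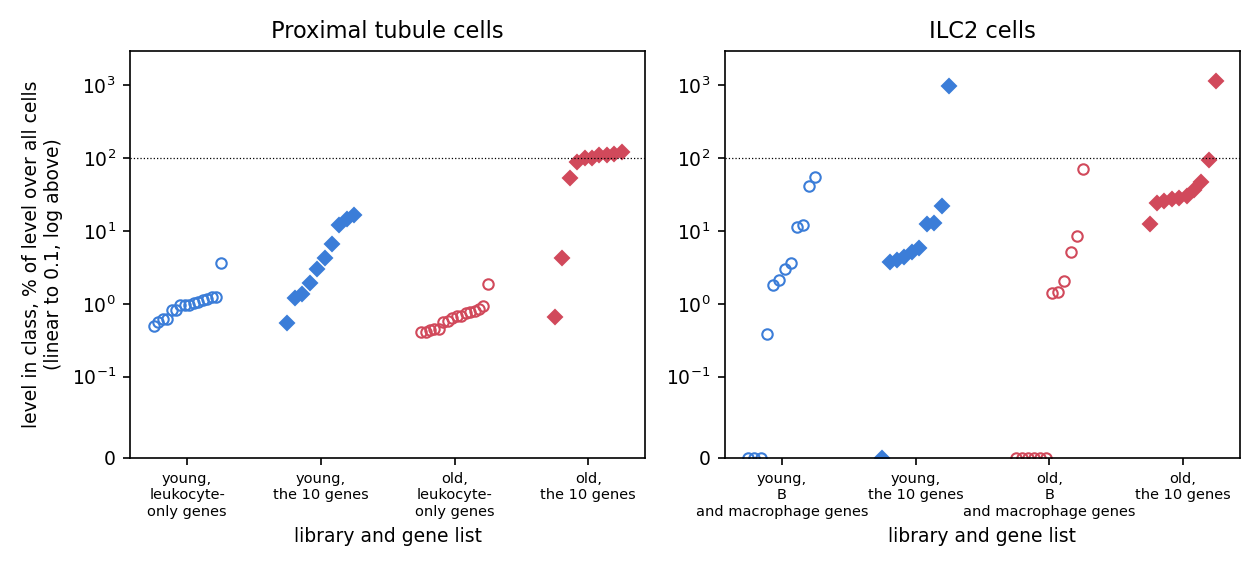
Level of a gene in the class as a percent of its level over all kept cells of the same library (y axis, linear to 0.1 and log above, dotted line at 100%), for PT cells beside 16 leukocyte-only genes and for ILC2 cells beside 12 B cell and macrophage genes (open circles) and the 10 members (diamonds). Each point is 1 gene. In old PT cells 8 members lie between 52.8% and 120%, and the leukocyte-only genes at or below 1.88%.

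The mix of the genes differed between classes. H2-DMb1 and H2-DMb2 are neighbouring copies that encode the same chain of H2-DM. Of their joint UMIs, H2-DMb2 held 34.8% (33.7–36.0%) in old and 12.4% (9.07–16.5%) in young PT cells, 35.7% (21.6–52.0%) in old ILC2 cells, 79.2% in old and 85.4% in young B cells, and 5.62% in old and 4.52% in young macrophages. Their main reference transcripts share 13.7% of the 100-base windows of H2-DMb1 and 13.5% of those of H2-DMb2, and within the last 500 bases, the end that a 3′ library reads, 10.5% and 0%. Reads from shared windows cannot be told apart, and how they were counted was not tested. H2-Eb1 held 17.4% (17.0–17.7%) of the joint UMIs of H2-Ab1 and H2-Eb1 in old PT cells and 19.8% (16.9–22.9%) in young PT cells. In the other old classes with at least 20 cells and 20 such UMIs it held between 34.0%, in monocytes, and 56.1%, in plasma cells. Of the old classes under that cut, the 16 endothelial cells held 15 H2-Eb1 UMIs beside 68 of H2-Ab1, a low share too. Dendritic cells held 447 beside 1086 and plasmacytoid dendritic cells 105 beside 234. In young monocytes and neutrophils H2-Eb1 held 24.1% (19.0–29.9%) and 25.2% (18.3–33.1%), with intervals that overlap that of young PT cells.

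**Figure D5:**
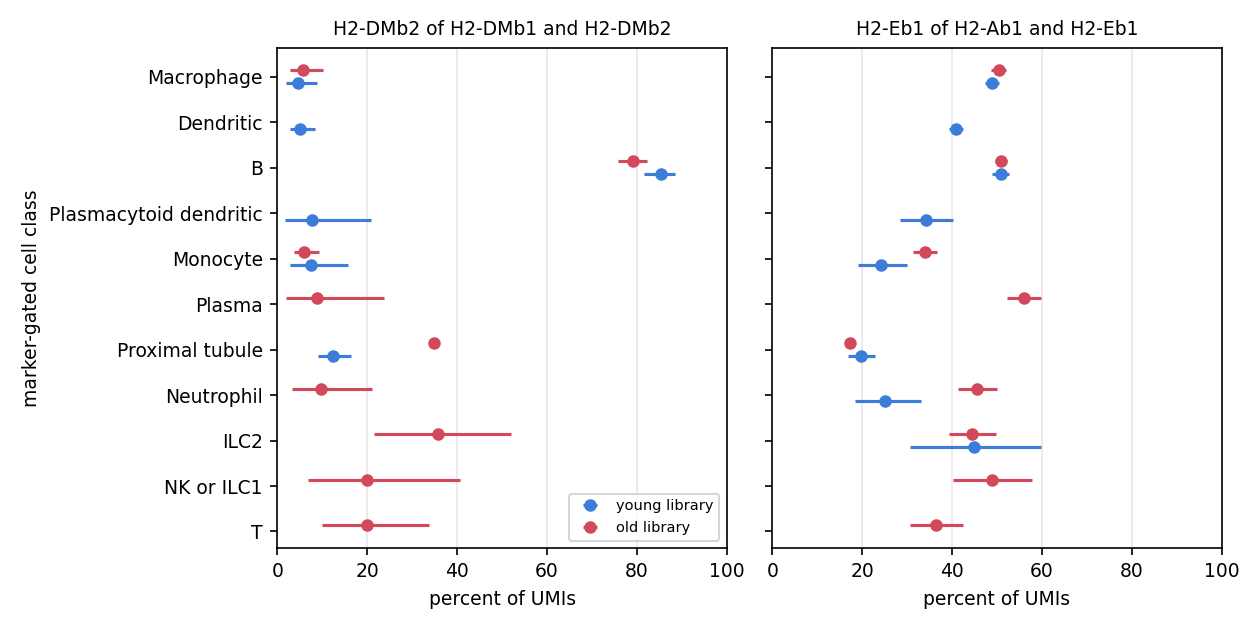
Percent of the joint UMIs of H2-DMb1 and H2-DMb2 that were H2-DMb2, and of H2-Ab1 and H2-Eb1 that were H2-Eb1 (x axes), by class (y axis) and library, with exact Clopper-Pearson 95% intervals as bars and classes with at least 20 cells and 20 joint UMIs shown. H2-DMb2 held 79.2% in old B cells, 34.8% in old PT cells and 5.62% in old macrophages.

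Within the old PT cells, 657 had a UMI of Ciita, and the other 9 members were at 5143 CPM in these and at 3198 CPM in the 2457 cells without one. The median depth was 18944 UMIs with Ciita and 12518 without, so the split by Ciita was also a split by depth. By the 6 injury genes Havcr1, Lcn2, Krt8, Krt18, Krt20 and Vcam1, the 276 old cells with UMIs of 2 or more held 5892 CPM of the members, the 2072 cells with 1 held 3413 CPM and the 823 cells with 0 held 3699.97 CPM, at median depths of 21612.5, 16553 and 6586 UMIs. The part of depth in these orders was not tested. Among young PT cells 384 had UMIs of 2 or more injury genes, 3759 of 1 and 1635 of 0, so holding 1 was not particular to old cells.

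Old PT cells were also ordered by their member UMIs after thinning. The 779 cells at the low end had 0 to 1 member UMI and the 778 cells at the high end had 6 to 26, at nearly the same median depth (14096 and 13722.5 UMIs). All 9 genes of MHC class I presentation were higher at the high end, with log2 ratios from 1.73 for Nlrc5 to 2.82 for H2-K1. The share of all genes that were higher there was not counted, so nothing is read from this count. Psmb8, an inducible subunit of the immunoproteasome, was at 72.2 CPM at the low end and 402 CPM at the high end, a log2 ratio of 2.48 (2.38–2.58), and the class I heavy chain H2-K1 was at 159 and 1124.5 CPM. The endosomal proteases Ctsb (0.80), Ctsl (0.71), Ctsd (0.69) and Lgmn (0.58) had log2 ratios with intervals above 0 too, while Ctss rested on 22 UMIs. Of the 6 injury genes, Vcam1 was at 2.09 and 48.9 CPM and Havcr1 at 2.39 and 12.7 CPM, while Krt8 was at 162 and 189 CPM, a log2 ratio of 0.22 (0.14–0.31). Krt18 was at 1.20 and 2.07 CPM, with an interval of the log2 ratio that held 0 (-0.15 to 1.78), and Krt20 and Lcn2 rested on 10 and 14 UMIs. Among leukocyte genes, Cd52 was at 4.64 and 4.21 CPM, Lyz2 at 5.68 and 5.06 CPM and Ptprc at 3.07 and 2.53 CPM, with intervals of the log2 ratio that held 0. Of the genes of interferon-gamma signalling, Irf1 was at 41.8 and 132 CPM, a log2 ratio of 1.66 (1.52–1.80). Ifngr1 was at 19.4 and 31.9 CPM (0.72, 0.50–0.95) and Ifngr2 at 15.9 and 20.1 CPM (0.34, 0.07–0.61). The kinases Jak1, at 149 and 146 CPM, and Jak2, at 12.7 and 13.6 CPM, had intervals that held 0.

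In ILC2 cells Cd74, H2-Aa, H2-Ab1, H2-Eb1 and H2-DMa were higher in the old library, and H2-Oa was not. Cd74 was at 32.9 CPM (28.1–38.3) in young ILC2 cells and 658 CPM (617–700) in old ones, a log2 ratio of 4.32 (4.08–4.57). H2-Aa was at 8.37 and 155 CPM, H2-Ab1 at 5.38 and 136 CPM and H2-Eb1 at 4.39 and 109 CPM, with log2 ratios of 4.21 (3.73–4.72), 4.66 (4.08–5.30) and 4.64 (3.99–5.35). H2-DMa was at 5.58 and 79.7 CPM, a log2 ratio of 3.83 (3.23–4.48). Ciita rested on 4 young and 13 old UMIs, H2-DMb1 on 12 and 27 and H2-DMb2 on 2 and 15. H2-Ob had 0 young UMIs and 1 old UMI.

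H2-Oa, the alpha chain of the H2-O inhibitor, was at 136 CPM (126–146) in young ILC2 cells and 134 CPM (116–154) in old ones, a log2 ratio of -0.02 (-0.26–0.21). It made up 69.2% of the member UMIs of young and 10.2% of those of old ILC2 cells. Its partner H2-Ob held 0 of the 680 joint UMIs of the pair in young ILC2 cells, a share whose exact interval ends at 0.541%. It held 1 of 199 in old ones, against 60.8% in young and 48.4% in old B cells. The share was low in T cells too, with 1 of 21 joint UMIs in young and 4 of 136 in old ones. NK cells or ILC1 had 1 of 6 in the young and 0 of 21 in the old library. Young plasmacytoid dendritic cells had H2-Ob at 0 of 22 and H2-Oa at 134 CPM, while young dendritic cells had 41.0% and 104 CPM. The level of H2-Oa in ILC2 cells was 972% of that over all young cells and 1161% of that over all old cells, and in PT cells of the same libraries it was at 0.0761 and 0.0753 CPM. Without H2-Oa the members summed to 60.2 CPM in young ILC2 cells and 1176 CPM in old ones, a log2 ratio of 4.29 (4.11–4.47), where all 10 gave 2.74 (2.63–2.85).

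Of 6 members with 100 UMIs, 5 were at least 2-fold higher in old ILC2 cells, and 1.43% of the 6525 genes counted there were. The 5 had ranks 3 to 7 by log2 ratio, and H2-Oa had rank 3127. As in PT cells, the count follows from how the members were chosen. H2-Eb1 held 44.5% (39.3–49.8%) of the joint UMIs with H2-Ab1 in old ILC2 cells, where PT cells of that library had 17.4%.

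In old ILC2 cells the UMIs lay in fewer of the cells than in old PT cells. The median cell had 3.81 member UMIs per 10000 against 1.40 in the young library, and the 95th percentile was 52.7 against 6.44. The top 5% of old ILC2 cells, 14 cells, held 43.8% of their member UMIs. UMIs of 4 or more members were found in 20.7% of old and 0.412% of young ILC2 cells. After thinning to 1000 UMIs, any member was found in 40.1% (34.2–46.2%) of old and 17.4% (15.05–19.96%) of young ILC2 cells, and H2-Oa in 14.0% and 13.5%. Cd74 was found in 24.3% of thinned old and 2.20% of thinned young ILC2 cells. Old ILC2 cells with Y-linked UMIs and no Xist held 868 CPM, and those with Xist and no Y-linked UMIs held 2381 CPM, while the young values were 196 and 186 CPM. Both old values were above both young values, and they rest on 154 and 74 cells of an unstated number of mice.

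Free RNA and mixed droplets were looked at in the same way. Over 12 B cell and macrophage markers the level in old ILC2 cells was 0.696% of the library's in the median. The gate let an ILC2 cell hold at most 1 gene of each of these lists. Their low level was thus partly set by the gate and cannot gauge free RNA or mixed droplets. Cd79b stood apart at 71.9%, and it was at 54.9% in young ILC2 cells, and the next was Cd68 at 8.49%. The members were between 12.7%, for H2-Ob, and 93.3%, for H2-DMa, beside H2-Oa. T cells of the same library and a like depth (median 4510 UMIs, against 5314.5 in ILC2 cells) held Cd74 at 81.5 CPM, H2-Eb1 at 6.96 CPM and H2-DMa at 15.4 CPM, where ILC2 cells held 658, 109 and 79.7 CPM. The 96 old ILC2 cells with no UMI of any B cell, macrophage, monocyte, dendritic or plasmacytoid dendritic marker held 941 CPM of the members, and 417 such young cells held 201 CPM, a log2 ratio of 2.23 (2.03–2.43).

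Professional antigen-presenting cells gave the scale. In B cells the 10 genes were at 21624 and 27949 CPM, and 3 of 10 were at least 2-fold higher in the old library, against 2.75% of 2477 genes counted. These were Ciita at 108 and 257 CPM, H2-DMb1 at 77.4 and 159 CPM and H2-Oa at 184 and 409 CPM. Cd74 was at 13847 and 15322 CPM, a log2 ratio of 0.15 (0.11–0.18). T cells, with 131 and 142 CPM, had 0 of 6 members at least 2-fold higher, against 7% of 8589 genes counted. The young value rests on few cells, since 12 of 224 young T cells held 75.5% of the UMIs, and in T cells with Y-linked UMIs and no Xist the members were at 60.5 and 126 CPM, a log2 ratio of 1.06 (0.59–1.57). Plasma cells of the old library held Cd74 at 4686 CPM, 82.6% of their member UMIs, and Ciita at 0 UMIs, with an upper limit of 3.11 CPM.

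Macrophages went the other way, but the gate did not hold like cells in both libraries. The members were at 53804.5 CPM in 49 young and at 16162 CPM in 89 old macrophages, a log2 ratio of -1.74 (-1.77 to -1.70), and 7 of 7 members counted were at least 2-fold lower, against 6.13% of 1810 genes lower and 16.2% higher. The complement genes C1qa, C1qb and C1qc mark resident macrophages. UMIs of them were found in 40 of the young but in 26 of the old cells. Among the cells with C1q UMIs the members were at 58017 and 43042 CPM, a log2 ratio of -0.43 (-0.47 to -0.39), and the 9 young cells without them held 41851 CPM and the 63 such old cells 3953 CPM.

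Around the 10 genes, 38 further genes of the pathway were listed in 7 groups, and 36 of them were in the table. The counts of these lists stand beside the 3.09% of all genes counted in PT cells and the 1.43% in ILC2 cells that were at least 2-fold higher in the old library. The promoter factors were Rfx5, Rfxap, Rfxank, the NF-Y subunits Nfya, Nfyb and Nfyc, and Creb1. None of 7 counted in PT cells and none of 6 counted in ILC2 cells reached 2-fold, with median log2 ratios of 0.01 and -0.07. Those counts are near the shares over all genes, so nothing is read from them. In old PT cells Rfx5 was at 6.78 CPM and Nfyc at 32.0 CPM, and in young PT cells at 5.44 and 31.8 CPM. Intervals of the log2 ratio in PT cells lay above 0 for Rfx5 (0.32) and Creb1 (0.16). They lay below 0 for Nfya (-0.30) and Rfxap (-0.19) and held 0 for the others. Rfx5 had too few UMIs to be counted in ILC2 cells, at 11.2 and 19.6 CPM, a log2 ratio of 0.81 (0.11–1.48). The membrane ligases March1 and March8, which drive class II molecules to degradation, gave 0 of 2 in PT cells, with log2 ratios of 0.54 (0.14–0.94) and 0.16 (0.09–0.23).

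In interferon-gamma signalling, the receptor chains Ifngr1 and Ifngr2 and the kinases Jak1 and Jak2 did not reach 2-fold in either class, and Irf1 did in both. Irf1, a transcription factor that acts on the Ciita gene, was at 1.50 CPM in young PT cells and 84.7 CPM in old ones and at 89.5 and 228 CPM in ILC2 cells. Ifngr1 was at 20.4 and 23.1 CPM in PT cells.

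MHC class I presentation, which shows peptides of the cytosol, was the list with the most genes past 2-fold. All 9 genes were at least 2-fold higher in old PT cells, with a median log2 ratio of 4.40, and 7 of 8 counted in ILC2 cells, with a median of 1.20. Psmb8 was at 1.16 CPM in young PT cells and 229.6 CPM in old ones, and Nlrc5, the coactivator of class I genes and a relative of Ciita, at 0.0870 and 6.04 CPM. Tapbp, a peptide loading factor, was the gene of the 8 that did not reach 2-fold in ILC2 cells, at 162 and 298 CPM.

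Of the endosomal proteases, Ctss, which cuts the last part of the invariant chain in professional antigen-presenting cells, was at least 2-fold higher in both. Its level in PT cells stayed low, at 0.315 and 1.47 CPM from 29 and 78 UMIs. Of the leukocyte-only genes in PT cells, Ptprc was at 1.20 and 2.94 CPM, Lyz2 at 2.22 and 6.34 CPM and Cd79a at 0.424 and 0.395 CPM. The part of free RNA in the Ctss values was not tested. Ctsl, which cuts the invariant chain in thymic epithelium, was at 506 and 447 CPM in PT cells, a log2 ratio of -0.18 (-0.20 to -0.16). The costimulatory genes Cd80, Cd86 and Cd40 had 2, 3 and 7 UMIs in all old PT cells. Cd274, the inhibitory ligand PD-L1, was at 0.402 and 7.76 CPM in PT cells and at 11.0 and 52.7 CPM in ILC2 cells.

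Likeness to the summed members was taken by Spearman's rho over 23 points, each a class in 1 library, for 11003 genes with 1000 UMIs. With the members left out, the genes most like them were Ly86 (0.864), Rnase6 (0.861), Tnfrsf13b (0.856), Unc93b1 (0.853) and Cd83 (0.842). The points share 2 libraries, so the values are a description. Their differences in PT cells were smaller than that of the summed members. Ly86 was at 0.0870 CPM in young PT cells and 0.113 CPM in old ones, Rnase6 at 0.587 and 0.320 CPM, Tnfrsf13b at 0.0544 and 0.0753 CPM, Cd83 at 0.228 and 0.471 CPM and Unc93b1, a carrier of endosomal Toll-like receptors, at 5.37 and 11.1 CPM, where the members went from 38.7 to 3745 CPM.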

How the data were processed

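The data are 2 single-cell libraries of pooled kidneys, 1 of young and 1 of old MRL-lpr mice, made with 10x 3′ v3.1 chemistry. The authors aligned reads to mm10 with Cell Ranger and deposited raw UMI counts per gene and barcode, written by version 3.1.0 per the file headers. The young matrix held 15076 barcodes with 156787812 UMIs and the old matrix 12622 barcodes with 126334256 UMIs.

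Barcodes were kept from 200 genes upwards and up to 20% mitochondrial UMIs, the filter of the study's methods, and doublets stayed in. Cells were classed by 15 marker lists. Class CPM has exact Poisson, shares exact Clopper-Pearson and log2 ratios exact binomial 95% intervals, which cover counting error only. Ratios were counted for genes with at least 100 UMIs in a class, and 2-fold was counted as higher or lower. The ratio step was tested on simulated data. Cells were thinned to 1000 UMIs with seed 7. The tools were Scanpy 1.11.5, pandas 2.3.3, SciPy 1.17.1, NumPy 2.4.6, Matplotlib 3.10.9 and Python 3.11.15.

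The members, marker lists, pathway lists and tests were chosen with earlier results of these data known, and the motif cores and the split of old PT cells by member UMIs with the promoters and the counts in view. All 10 members were named, the pathway genes by their counts with examples, and the 5 genes most like the members. H2-Ea-ps and Ifi30 were not analysed here, 1 gene of the pathway lists is not reported here, and Cd74, Ciita and H2-Ab1 promoters were not used here. Alternatives were other gates, Scrublet doublets left out, at most 10% mitochondrial UMIs, at least 500 genes, mean CPM per cell, another total, cells by sex genes, cells without leukocyte UMIs, subtraction of free RNA and other depths of thinning.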

Additional observations from a re-analysis of the deposited data

How the results depend on the processing

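No paired analysis was possible because each age is 1 library, and for the same reason no replicate could be left out. Over 45 alternatives none of the 4 summed log2 ratios, old over young, changed direction, and 24 stayed within the counting interval of the reported value. In PT cells (6.60 as reported) it was 6.66 with at least 4 and 6.52 with at least 2 own markers, 6.14 by the mean CPM over cells, 6.69 in cells with Xist and no Y-linked UMIs, 6.76 in cells without leukocyte UMIs and 7.08 with free RNA subtracted. In ILC2 cells (2.74) it was 3.14 with at least 2 own markers, 2.15 in cells with Y-linked UMIs and no Xist, 3.68 in cells with Xist and no Y-linked UMIs, 2.23 without UMIs of other antigen-presenting cells, 2.95 with free RNA subtracted and 4.29 without H2-Oa, which was added after the data were seen. The subtraction in ILC2 cells used B cell and macrophage markers that the gate partly held low, so the 2.95 says nothing of free RNA. In B cells (0.37) the log2 ratio was 0.43 with the total cleared of Malat1 and of mitochondrial, ribosomal and hemoglobin genes. It was 0.46 in B cells with Xist and no Y-linked UMIs. In macrophages (-1.74) it was -0.50 with at least 4 and -1.83 with at least 2 own markers, -1.92 by the mean CPM over cells, -1.81 with the cleared total, -2.96 in cells with Y-linked UMIs and no Xist, -0.92 in cells with Xist and no Y-linked UMIs and -0.43 in cells with C1q UMIs, also added after the data were seen. The cause was not tested. Scrublet called 351 young and 271 old cells doublets, of which 26 and 9 were PT cells and 1 and 0 ILC2 cells. The percent of old PT cells with a member UMI was 66.7 at 500, 77.6 at 1000 and 85.5 at 2000 UMIs and 95.1 without thinning, against 1.96, 3.15, 6.24 and 23.9 in young PT cells. In ILC2 cells the same 4 depths gave 31.5, 40.1, 58.6 and 77.9 in the old and 9.07, 17.4, 28.5 and 53.4 in the young library.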
